A study of Mus musculus with 12 samples.

Results

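The colony-stimulating factors of mouse and their receptors were examined as a family of 7 genes, the ligand genes Csf1, Csf2 and Csf3 and the receptor genes Csf1r, Csf2ra, Csf2rb and Csf3r. They were chosen by name, with earlier results of these data known, and each symbol matched 1 of the 54232 genes of the count table. RNA was sequenced in RAW264.7, an established mouse macrophage line, in 12 libraries that form 6 groups of 2. The groups were Socs1-/- cells, Ing4-/- cells and wild-type cells, each either treated with LPS (lipopolysaccharide, the bacterial endotoxin) at 100 ng/ml for 3 h or left untreated. All groups share the line, the medium and the poly(A) library kit. The labels give 1 number for each knockout line and do not say whether it is 1 clone, so the loss of the gene and a difference between lines cannot be told apart. Nor do they say whether both libraries of 1 group were grown apart, so p-values measure the spread between these libraries only. Libraries are named below by group and number. In bulk RNA, fewer cells that express a gene and less RNA per cell cannot be told apart.

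Colony-stimulating factors are secreted proteins that keep myeloid cells alive and direct their growth and maturation. CSF1 acts through CSF1R, a receptor tyrosine kinase that macrophages need for survival. CSF2 (GM-CSF) acts through a specific alpha chain (CSF2RA) joined to the common beta chain (CSF2RB), which also serves interleukin 3 and interleukin 5 in other cells. CSF3 (G-CSF) acts through CSF3R, the main growth factor receptor of neutrophils. Macrophages are known to make these factors when bacterial products activate NF-kB, and the messages of CSF2 and CSF3 are classic examples of transcripts that decay fast through AU-rich elements, repeats of ATTTA in the 3′ untranslated region (3′ UTR).

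The 3 ligand messages differ in these elements. For each, a stretch of 30 bases with the most bases inside ATTTA pentamers is shown to make the difference visible. The bases run 5′ to 3′ as DNA, come from GENCODE M21 transcripts on GRCm38, and have the bases of pentamers in capitals. The Csf3 stretch ends inside a pentamer.
Csf1: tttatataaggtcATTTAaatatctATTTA
Csf2: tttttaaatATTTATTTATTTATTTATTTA
Csf3: ATTTAtctctATTTAatATTTAtgcatATT
The Csf1 stretch spans bases 2021 to 2050 of a 3′ UTR of 2111 bases on chromosome 3, minus strand, the Csf2 stretch bases 230 to 259 of 317 on chromosome 11, minus strand, and the Csf3 stretch bases 32 to 61 of 669 on chromosome 11, plus strand. In Csf2 the pentamers overlap without a gap, and in Csf3 they stand apart. The whole Csf2 3′ UTR held 9 pentamers, or 28.39 per kb, and 0.05% of 11087 tested genes with an annotated 3′ UTR had that density or a higher one. Csf3 held 6 pentamers (8.97 per kb, reached by 0.8% of these genes) and Csf1 held 4 (1.89 per kb, reached by 34.54%). The stricter nonamer TTATTTATT occurred 4 times in Csf2 and in 8.06% of the genes, and was absent from Csf1 and Csf3. Of the receptor messages, Csf1r held 3 pentamers and Csf2ra, Csf2rb and Csf3r held 0, while 70.62% of the genes held at least 1.

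The promoters of Csf1 and Csf2ra are shown because both messages were higher after LPS and both windows hold a searched motif. Each is the 250 bases before the RefSeq start (GRCm38.p6), read 5′ to 3′ on the strand of the gene.
Csf1: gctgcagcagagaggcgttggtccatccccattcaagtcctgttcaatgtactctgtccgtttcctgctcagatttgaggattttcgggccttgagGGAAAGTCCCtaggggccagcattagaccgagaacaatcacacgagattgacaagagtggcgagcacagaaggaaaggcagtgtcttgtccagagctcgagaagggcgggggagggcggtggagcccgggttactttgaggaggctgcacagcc
Csf2ra: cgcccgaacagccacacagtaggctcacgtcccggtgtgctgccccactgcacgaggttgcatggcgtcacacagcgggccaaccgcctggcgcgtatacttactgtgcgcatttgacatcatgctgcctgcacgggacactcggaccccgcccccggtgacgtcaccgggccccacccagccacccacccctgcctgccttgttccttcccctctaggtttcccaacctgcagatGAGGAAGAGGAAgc
The Csf1 window is chr3:107760470-107760719, minus strand, and its capitals mark an NF-kB consensus match of 10 bases on the other strand, whose first base lies at -154. The Csf2ra window is chr19:61228419-61228668, minus strand, and its capitals mark 2 adjoining matches to GAGGAA, the core bound by the myeloid factor PU.1, at -14 and -8. RefSeq windows were given for 4 of the 7 genes. Over 250 bases before to 50 after the start, and on both strands, the NF-kB consensus occurred in 4.51% of 32851 windows, GAGGAA in 28.28% and the AP-1 site TGANTCA in 7.81%. The window of Csf3r held 1 GAGGAA at -86, but its RefSeq start lies 109 bases downstream of the GENCODE start, so the match lies inside the GENCODE gene. The RefSeq start of Csf2ra lies 11 bases downstream of the GENCODE start, which falls within the match at -14. The window of Csf2 held none of the 3 motifs, and its RefSeq start lies 232 bases upstream of the GENCODE start.

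Library totals ranged from 17250815 to 24377950 counts, and 12771 genes with enough counts were tested. On the first principal component (58.8% of the variance of log2 CPM, where CPM is counts scaled by library total) the untreated libraries lay between -55.8 and -36.7 and 5 LPS-treated libraries between 52.7 and 64.6. Socs1 knockout LPS library 1 stood apart at -14.4, and results that rest on it are also given without it, where the remaining library of that group is assumed to vary like the others. The targeted transcripts gave no clear check of the genotypes. Ing4 was low in every library, with 6 to 29 counts in Ing4 knockout libraries and 2 to 10 in wild type. It shares 1855 exon bases with Gm44597 on the same strand, so reads there could be lost. Socs1 after LPS was lower in the Socs1 knockout, with 2.73 and 7.14 CPM, than in wild type, with 9.08 and 9.07 CPM. In this way 18% of tested genes lay below wild type. The Ing4 knockout had 8.79 and 8.19 CPM of Socs1 after LPS. Untreated, Socs1 had 0.303 and 0.348 CPM in the Socs1 knockout and 0.176 and 0.498 CPM in wild type. The macrophage label held, with all 12 macrophage markers detected and a summed level of 13893.5 to 24987.2 CPM after LPS and 12153.2 to 23838.2 CPM untreated. Neutrophil and early myeloid markers summed to 1.34 to 3.38 CPM after LPS and 0.741 to 3.22 CPM untreated, with 7 of 15 at 0, among them Mpo, Ly6g and S100a9. Dendritic cell markers summed to 5.21 to 13.0 CPM after LPS and 5.55 to 14.5 CPM untreated, with Cd209a and Flt3 at 0. Lymphocyte markers summed to at most 0.0905 CPM, and markers of fibroblasts, epithelium, endothelium and red cells to at most 0.659 CPM.

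All 7 members passed the filter on low counts, but over the untreated libraries alone 5 did, without Csf2 and Csf3. Since these 2 were kept only for their level after LPS, they had to differ from untreated cells, and their p-values for LPS against untreated are given as a description. Per kilobase of exon, which allows levels of different genes to be compared, Csf1r led the untreated cells at 294.5 to 408.4 CPM per kb in the 6 libraries. Csf2ra followed at 16.6 to 30.5, Csf2rb at 4.1 to 12.1 and Csf3r at 0.851 to 4.91 CPM per kb, and the 3 ligands were at or below 0.141 CPM per kb. Csf2rb and Csf3r overlapped, and the other neighbours in this order did not. After LPS the order was another, with Csf3 at 12.7 to 396.6 CPM per kb beside Csf1r at 124.8 to 365.5. Csf2ra then stood at 21.4 to 38.4, Csf1 at 2.67 to 23.6, Csf2 at 0.102 to 45.0, Csf2rb at 3.46 to 13.2 and Csf3r at 0.714 to 2.68 CPM per kb. In treated cells the range of Csf3 overlapped those of Csf1r, Csf2ra, Csf1, Csf2 and Csf2rb. Csf1 and Csf2 overlapped each other and both Csf2ra and Csf2rb, while Csf2ra and Csf2rb did not overlap. The range of Csf3r reached into those of Csf1 and Csf2.

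**Figure D1:**
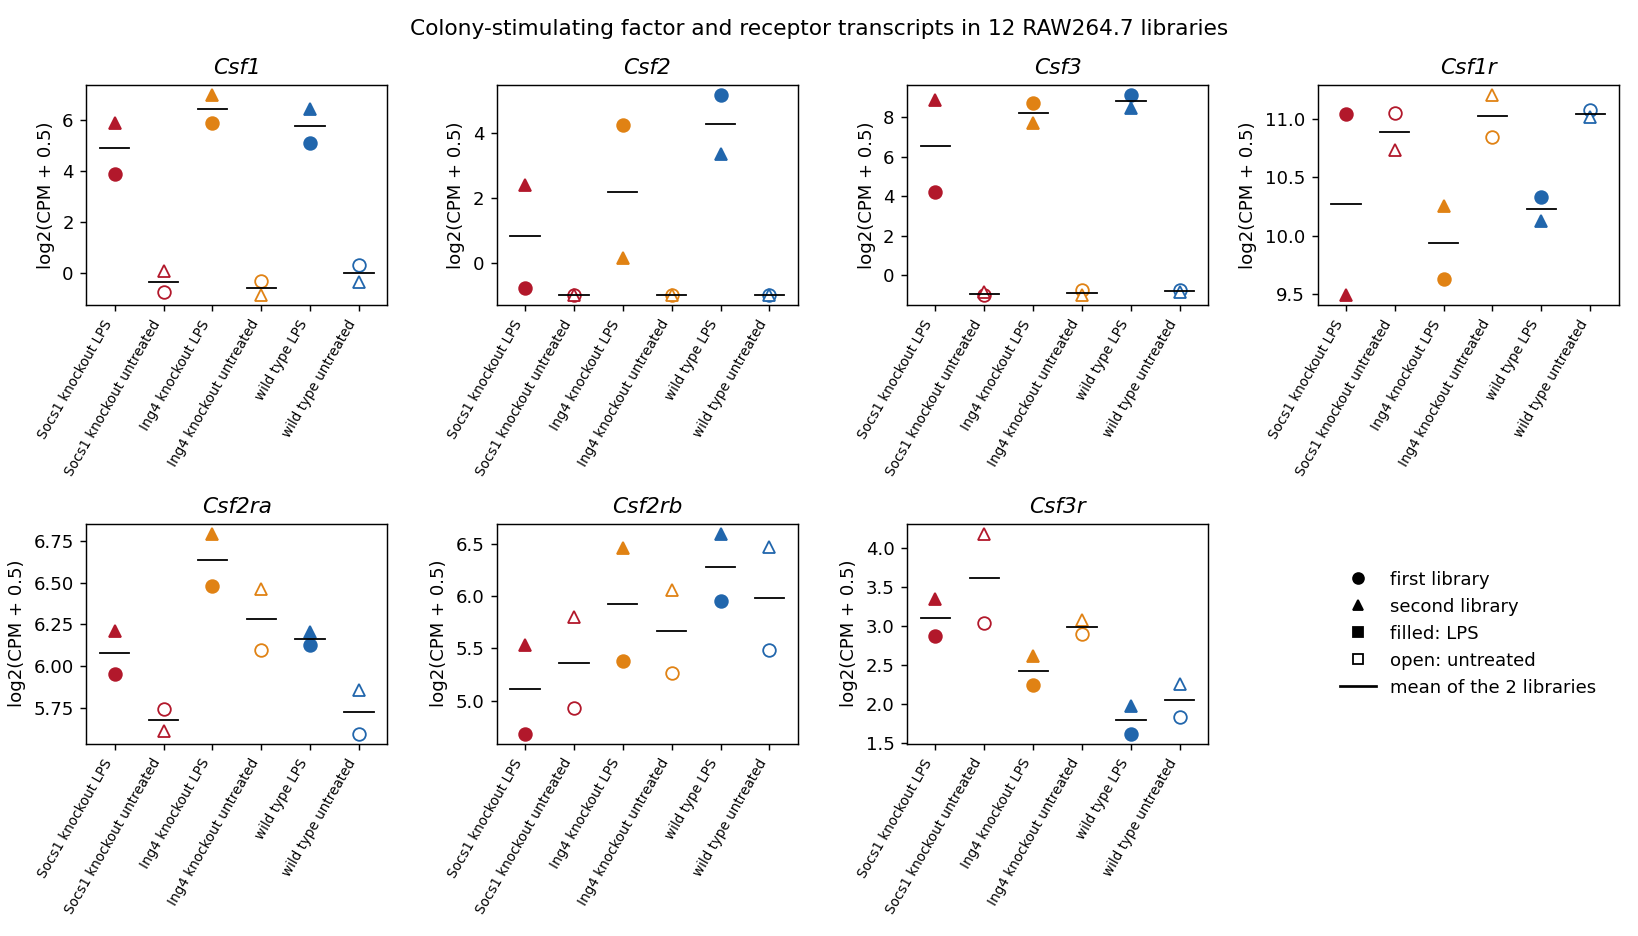
Level of each of the 7 genes, as log2 of CPM plus 0.5, in every library. Circles are first and triangles second libraries, filled marks are LPS-treated and open marks untreated, and bars are means of 2. The 3 ligands lie near the floor in all untreated libraries, while Csf1r is lower in 5 of the 6 LPS-treated libraries than in any untreated one.

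Csf1, the macrophage growth factor, rose after LPS in all 3 genotypes. In the Socs1 knockout it had 14.1 and 58.1 CPM after LPS, against 0.0867 and 0.547 CPM untreated. The Ing4 knockout had 58.5 and 124.9 CPM after LPS, against 0.305 and 0.0461 CPM untreated. In wild type the levels were 33.2 and 84.2 CPM after LPS, against 0.746 and 0.272 CPM untreated. Every LPS-treated library stood above every untreated one, as 7.7% of tested genes did, and in each genotype the second LPS-treated library was the higher one, by 4.12, 2.13 and 2.54 times in this order of genotypes. By the quasi-likelihood test of edgeR, with p adjusted over all tested genes by the Benjamini-Hochberg method, the log2 change was 6.85 (SE 1.13) in the Socs1 knockout at an adjusted p of 0.022, 8.96 (SE 1.23, adjusted p = 0.0074) in the Ing4 knockout and 6.83 (SE 1.08, adjusted p = 0.02) in wild type. Averaged over the genotypes it was 7.55 (SE 0.662, adjusted p = 0.00021). Without Socs1 knockout LPS library 1 the log2 change was 7.55 (SE 0.949) in the Socs1 knockout. In that fit it was 8.96 (SE 0.971) in the Ing4 knockout and 6.83 (SE 0.85) in wild type. Untreated Csf1 rested on 1 to 17 counts per library, and its call within a genotype did not survive the loss of some libraries. Adjusted p was 0.17 and 0.13 without the first or second untreated Socs1 knockout library, 0.07 and 0.08 without an untreated Ing4 knockout library, and 0.18, 0.19 and 0.092 without the first untreated, second untreated or second LPS-treated wild-type library. With limma-voom the adjusted p was 0.12 in the Socs1 knockout and 0.054 in wild type. The mean over genotypes was called whichever of the 12 libraries was left out. The authors' deposited table for wild type lists Csf1 with a log2 change of 2.8 and an adjusted p of 6.5e-05.

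Csf2, which encodes GM-CSF, was not detected without LPS and was the most uneven member after it by the fold between libraries of a group. All 6 untreated libraries had 0 counts, and 3 counts, the limit that a count of 0 allows, correspond to 0.13 to 0.149 CPM in them. After LPS it had 2 and 86 counts (0.0815 and 4.83 CPM) in the Socs1 knockout, 390 and 11 counts (18.5 and 0.609 CPM) in the Ing4 knockout and 671 and 193 counts (36.0 and 9.78 CPM) in wild type. Socs1 knockout LPS library 1 was thus no higher than the limit in untreated cells, and the libraries of a group differed by 59.3, 30.4 and 3.68 times in this order. Against a floor of 3 counts over the untreated group, Csf2 was at least 29.9-fold higher after LPS in the Socs1 knockout, at least 152.5-fold in the Ing4 knockout and at least 337.2-fold in wild type. With its second treated library alone the Socs1 knockout was at least 69.6-fold higher, and its first, at 2 counts, gives no ratio. The adjusted p of edgeR was 0.36, 0.14 and 0.15 in the same order of genotypes, whereas DESeq2 gave 0.023 in the Ing4 knockout and 0.012 in wild type. With the library number as a block within each genotype, which pairs a treated with an untreated library, edgeR gave 0.034, 0.011 and 0.0097. Over the 3 genotypes the adjusted p was 0.019, and 0.17 without Socs1 knockout LPS library 2. Reads of the antisense gene Gm12223, which shares 96 exon bases with Csf2, numbered at most 1 per library.

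Csf3, which encodes G-CSF, was at or near 0 without LPS, with 0 to 2 counts in each untreated library. After LPS it reached 17.9 and 464.1 CPM in the Socs1 knockout, 428.6 and 207.9 CPM in Ing4 knockout cells, and 560.4 and 356.5 CPM in wild type. The groups did not overlap, and Socs1 knockout LPS library 1 was far below the other 5 treated ones. The ratio of LPS-treated to untreated counts, scaled for library size, was 8869.4 in the Socs1 knockout (95% exact binomial interval 1591.5 to 350362.0, counting error only), 7292.7 in the Ing4 knockout (2018.4 to 60224.7) and 6816.7 in wild type (2332.2 to 33058.2). Within the Socs1 knockout it was 773.9 (138.2 to 30635.2) for the first LPS-treated library and 20038.2 (3595.5 to 791562.3) for the second. The adjusted p of edgeR was 0.019, 0.012 and 0.017 in the same order and 0.00025 over the 3 together. With limma-voom the same adjusted p were 0.34, 0.14 and 0.15, and with DESeq2 5e-09, 6.2e-11 and 4e-12. With the library number as a block within each genotype edgeR gave 7.4e-05, 3.2e-05 and 2.5e-05. On only the groups compared it gave 0.47, 0.0015 and 0.00046. Without an untreated library of the same genotype they were 0.17 and 0.19 in the Socs1 knockout and 0.11 and 0.11 in the Ing4 knockout, and without any 1 wild-type library they lay between 0.063 and 0.2 in wild type. The mean over genotypes stayed below 0.05 whichever library was left out. The authors' deposited table for wild type gives Csf3 a log2 change of 2.25 and an adjusted p of 0.0019.

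Of the 5 members kept without regard to their LPS level, edgeR called 1, Csf1, in each genotype, and it was higher after LPS. Counting Csf3, which had to differ, 2 of the 7 were called. Among all tested genes 1.98% were called in the Socs1 knockout (1.57% as higher), 8.02% in the Ing4 knockout (4.73% as higher) and 2.89% in wild type (1.89% as higher). Averaged over the genotypes 3 of the 5 were called, Csf1 and Csf2ra as higher and Csf1r as lower, or 5 of 7 with Csf2 and Csf3, where 33.2% of all tested genes were called, 17.9% as higher and 15.2% as lower. Without Socs1 knockout LPS library 1 the count over 7 was 3 in the Socs1 knockout (15.8% of 13262 genes), 3 in the Ing4 knockout (20.4%) and 2 in wild type (14.5%), and 5 over the 3 genotypes (41.7%). The added call in both knockouts was Csf1r. With library number as a block within each genotype, 3 of 7 were called in the Socs1 knockout (6.02% of all tested genes), 4 in the Ing4 knockout (27.2%), 3 in wild type (14.2%) and 6 over the 3 genotypes (51.7%). Beside Csf2, the calls added by this block were Csf1r in the Ing4 knockout and Csf3r over the 3 genotypes.

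The mixture of ligand messages differed between treated libraries of the same genotype. Per kilobase, the ratio of Csf3 to Csf1 after LPS was 4.75 and 29.9 in the Socs1 knockout, 27.4 and 6.22 in Ing4 knockout cells, and 63.1 and 15.8 in wild type. Csf3 was the highest ligand in all 6 treated libraries. The ratio of Csf2 to Csf1 was 0.0382 and 0.55 in the Socs1 knockout, 2.09 and 0.0322 in Ing4 knockout cells, and 7.17 and 0.767 in wild type. Csf2 therefore exceeded Csf1 in the first libraries of the Ing4 knockout and of wild type and stood below it in the other 4. In these 2 genotypes the library with more Csf2 and Csf3 had less Csf1, whereas in the Socs1 knockout the second library had more of all 3. Among all tested genes the difference between the LPS-treated libraries of a group was larger for Csf2 than for 98.2% of genes in the Socs1 knockout, 100.0% in the Ing4 knockout and 99.6% in wild type, and for Csf1 larger than for 95.7% in the Ing4 knockout and 98.4% in wild type.

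**Figure D2:**
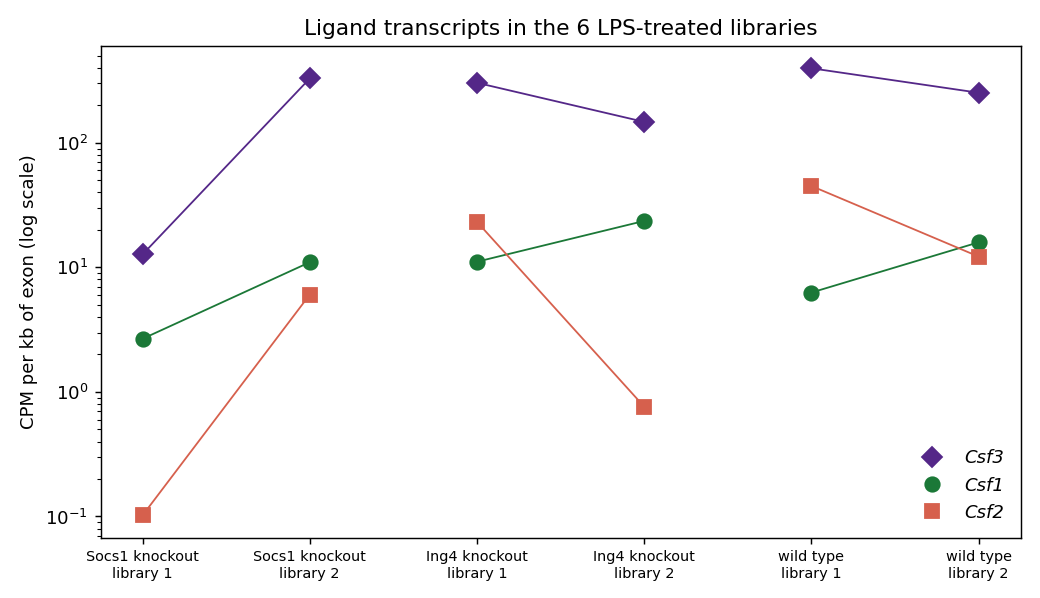
Csf1, Csf2 and Csf3 in CPM per kb of exon, on a log axis, in the 6 LPS-treated libraries, with lines joining the libraries of a genotype. Csf3 is the highest of the 3 in every library, and Csf2 spans 0.102 to 45.0 CPM per kb.

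The receptor genes moved far less than the ligands. Csf1r, the receptor of CSF1 and a defining gene of macrophages (chr18:61100598-61132149, plus strand, GRCm38), had 2110.4 and 720.7 CPM after LPS in the Socs1 knockout, against 2114.5 and 1700.2 CPM untreated. The Ing4 knockout had 792.5 and 1219.7 CPM after LPS, against 1834.8 and 2358.3 CPM untreated. In wild type the levels were 1289.0 and 1117.5 CPM after LPS, against 2155.5 and 2069.5 CPM untreated. Treated libraries stood below untreated ones in the Ing4 knockout and in wild type, as 28.6% and 30.7% of tested genes did, and the groups overlapped in the Socs1 knockout, whose first treated library was at the untreated level. The log2 change was -0.43 (SE 0.435, adjusted p = 0.68) in the Socs1 knockout, -1.06 (SE 0.439, adjusted p = 0.15) in the Ing4 knockout and -0.81 (SE 0.437, adjusted p = 0.31) in wild type. Without Socs1 knockout LPS library 1 it was -1.40 (SE 0.345, adjusted p = 0.025) in the Socs1 knockout, -1.06 (SE 0.266, adjusted p = 0.022) in the Ing4 knockout and -0.81 (SE 0.265, adjusted p = 0.075) in wild type. With the library number as a block it was called in the Ing4 knockout (-1.08, adjusted p = 0.041). Over the 3 genotypes Csf1r fell by 0.77 on the log2 scale (SE 0.252, adjusted p = 0.043), and by 1.09 (adjusted p = 0.00091) without that library. The call with 12 libraries was lost when any 1 of 9 libraries was left out, with an adjusted p of at most 0.11: all 4 wild-type libraries, both untreated Ing4 knockout libraries and the first treated one, and both untreated Socs1 knockout libraries. Exons of Csf1r and of Hmgxb3 on the opposite strand share 873 bases, and Hmgxb3 had 685 to 1923 counts against 12823 to 51814 for Csf1r. The kit marks strand, but whether the counting used it was not recorded in the sources at hand.

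Csf2ra, the specific chain of the GM-CSF receptor, was higher after LPS in every genotype by a small and even step. It had 61.3 and 73.5 CPM after LPS in the Socs1 knockout, against 53.1 and 48.3 CPM untreated. The Ing4 knockout had 88.7 and 110.4 CPM after LPS, against 68.0 and 87.6 CPM untreated. In wild type the levels were 69.2 and 73.2 CPM after LPS, against 47.8 and 57.3 CPM untreated. The groups did not overlap within any genotype, as was so above the untreated level for 22.5% of tested genes in the Socs1 knockout, 29.1% in the Ing4 knockout and 30.7% in wild type. The log2 change was 0.41, 0.36 and 0.44 in this order (SE 0.186 each, adjusted p of 0.31, 0.25 and 0.21), and none passed alone. Over the 3 genotypes Csf2ra rose by 0.40 on the log2 scale (SE 0.108, adjusted p = 0.02). That call was lost with upper-quartile scaling (log2 0.27, adjusted p = 0.065) and without the first untreated or second LPS-treated wild-type library (0.06 and 0.052). It was also lost without the first untreated Ing4 knockout library (0.053) or the second untreated Socs1 knockout library (0.058), and reached 0.05 without the second LPS-treated Ing4 knockout library.

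Csf2rb, the common beta chain that pairs with CSF2RA, did not pass in any comparison of LPS with untreated cells. It had 25.2 and 45.7 CPM after LPS in the Socs1 knockout, against 29.9 and 55.2 CPM untreated. The Ing4 knockout had 41.2 and 87.4 CPM after LPS, against 38.0 and 66.2 CPM untreated. In wild type the levels were 61.4 and 96.1 CPM after LPS, against 44.3 and 88.1 CPM untreated. Groups overlapped in every genotype, and the log2 change over all 3 was 0.10 (SE 0.308, adjusted p = 0.84). The second library was higher than the first in all 6 groups, by 1.56 to 2.12 times, as was so for 4.95% of tested genes. Csf3r was also higher in the second library of 6 groups, and Csf2ra in 5. The related neighbour Csf2rb2, which encodes a beta chain of the mouse interleukin 3 receptor, was also higher in the second library of all 6 groups, by 1.04 to 5.0 times. Of the 75-base words of the Csf2rb transcript 10.734% also occur in Csf2rb2, so reads there could be split or lost. Summed osteoclast markers, which RAW264.7 cells can express, were likewise higher in the second library of all 6 groups, at 155.6 to 822.1 CPM after LPS and 109.1 to 720.8 CPM untreated with Calcr at 0, and so were the summed macrophage and dendritic cell markers. The part of these markers in the spread of Csf2rb was not tested.

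Csf3r, the G-CSF receptor, was the lowest receptor gene per kilobase. It had 6.84 and 9.67 CPM after LPS in the Socs1 knockout, against 7.72 and 17.7 CPM untreated. The Ing4 knockout had 4.23 and 5.64 CPM after LPS, against 6.97 and 7.92 CPM untreated. In wild type the levels were 2.58 and 3.45 CPM after LPS, against 3.07 and 4.30 CPM untreated. In the Ing4 knockout both treated libraries stood below both untreated ones, as 28.6% of tested genes did, and in the other genotypes the groups overlapped. The log2 change over the 3 genotypes was -0.50 (SE 0.237, adjusted p = 0.13), and it was called without the first untreated Socs1 knockout library (-0.66, adjusted p = 0.042) and with the library number as a block within each genotype (-0.47, adjusted p = 0.028).

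**Figure D3:**
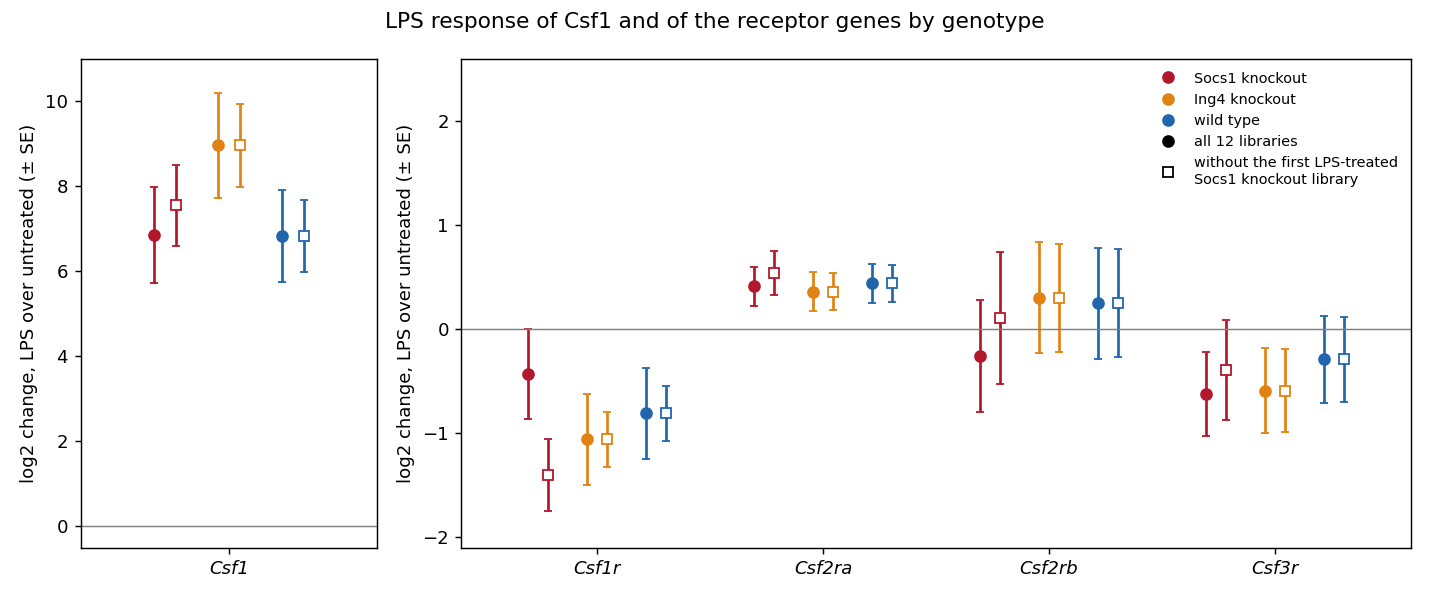
Log2 change of LPS-treated over untreated cells, with its standard error, for Csf1 (left) and the 4 receptor genes (right) in each genotype. Filled circles use 12 libraries and open squares leave out Socs1 knockout LPS library 1, so that Csf1r in the Socs1 knockout stands at -1.40 without it and -0.43 with it.

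The ratios between receptor messages are set by these levels. Per kilobase, Csf2ra stood above Csf2rb by 6.17 and 4.08 times after LPS and 4.51 and 2.22 times untreated in the Socs1 knockout. The ratio was 5.46 and 3.2 after LPS and 4.53 and 3.35 untreated in the Ing4 knockout, and 2.86 and 1.93 after LPS and 2.74 and 1.65 untreated in wild type. All 8 knockout libraries but 1, the second untreated Socs1 knockout library, exceeded all 4 wild-type libraries in this ratio. How many other gene pairs would do so was not measured, so this is a description and no result about the knockouts. In every group the ratio was higher in the first library. Csf1r exceeded Csf2ra by 4.44 to 9.27 times in 5 treated libraries, by 17.1 times in the first treated Socs1 knockout library, and by 13.4 to 22.4 times in the untreated ones.

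The knockouts were then set against wild type. In untreated cells Csf3r had 7.72 and 17.7 CPM in the Socs1 knockout and 6.97 and 7.92 CPM in the Ing4 knockout, against 3.07 and 4.30 CPM in wild type. After LPS it had 6.84 and 9.67 CPM in the Socs1 knockout and 4.23 and 5.64 CPM in the Ing4 knockout, against 2.58 and 3.45 CPM in wild type. Both libraries of each knockout stood above both of wild type under both treatments. Of all tested genes 19% and 16.8% lay above wild type in this way in untreated and LPS-treated Socs1 knockout cells, and 18.4% and 19.4% in Ing4 knockout cells. The log2 difference of the Socs1 knockout was 1.78 untreated (SE 0.417, adjusted p = 0.35) and 1.45 after LPS (SE 0.419, adjusted p = 0.29), and that of the Ing4 knockout was 1.01 (SE 0.412, adjusted p = 0.87) and 0.71 (SE 0.417, adjusted p = 0.85). None passed by edgeR, but for the untreated Socs1 knockout DESeq2 gave 1.80 (adjusted p = 0.015). The authors' deposited table of changed genes lists Csf3r in that comparison with a log2 change of 1.56 and an adjusted p of 0.014. These values rest on 48 to 356 counts per library, and both knockouts share the wild-type libraries they were set against. The markers of neutrophils, the cells in which Csf3r is best known, summed to 1.34 to 2.14 CPM in Socs1 knockout libraries, 0.741 to 3.38 CPM in Ing4 knockout libraries and 1.10 to 2.31 CPM in wild type, and their part in the result was not tested.

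Csf2ra was higher in the Ing4 knockout than in wild type in both libraries of both treatments, as 18.4% of tested genes were untreated and 19.4% after LPS, with a log2 difference of 0.57 untreated (SE 0.186, adjusted p = 0.62) and 0.48 after LPS (SE 0.186, adjusted p = 0.66), and neither passed. In the Socs1 knockout the log2 difference was -0.05 untreated and -0.08 after LPS, each with an SE of 0.186. For Csf2rb the LPS-treated Socs1 knockout lay below wild type in both libraries, with a log2 difference of -1.15 (SE 0.541, adjusted p = 0.49), as 18% of tested genes did. Without Socs1 knockout LPS library 1 this difference was -0.78 (SE 0.656). The untreated Socs1 knockout differed by -0.64 (SE 0.536) and overlapped with wild type. The Ing4 knockout differed by -0.29 (SE 0.533) after LPS and -0.34 (SE 0.534) untreated, and overlapped with wild type in both. The neighbour Csf2rb2 had 12.5 and 13.0 CPM after LPS and 13.6 and 15.7 CPM untreated in the Socs1 knockout, against 28.0 and 45.3 CPM after LPS and 30.2 and 59.0 CPM untreated in wild type. Both libraries lay below wild type under both treatments, as 18% of tested genes did after LPS and 20.4% untreated, and the log2 difference was -1.53 after LPS (SE 0.808, adjusted p = 0.54) and -1.60 untreated (SE 0.807, adjusted p = 1). Osteoclast markers summed to 109.1 to 200.2 CPM in the Socs1 knockout and 316.1 to 822.1 CPM in wild type, and their part in these differences was not tested. Csf1r differed from wild type by a log2 of 0.23 after LPS and -0.15 untreated in the Socs1 knockout and by -0.26 and -0.01 in the Ing4 knockout, each with an SE of 0.434. Without Socs1 knockout LPS library 1 the first of these was -0.74 (SE 0.333, adjusted p = 0.47), the opposite direction.

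**Figure D4:**
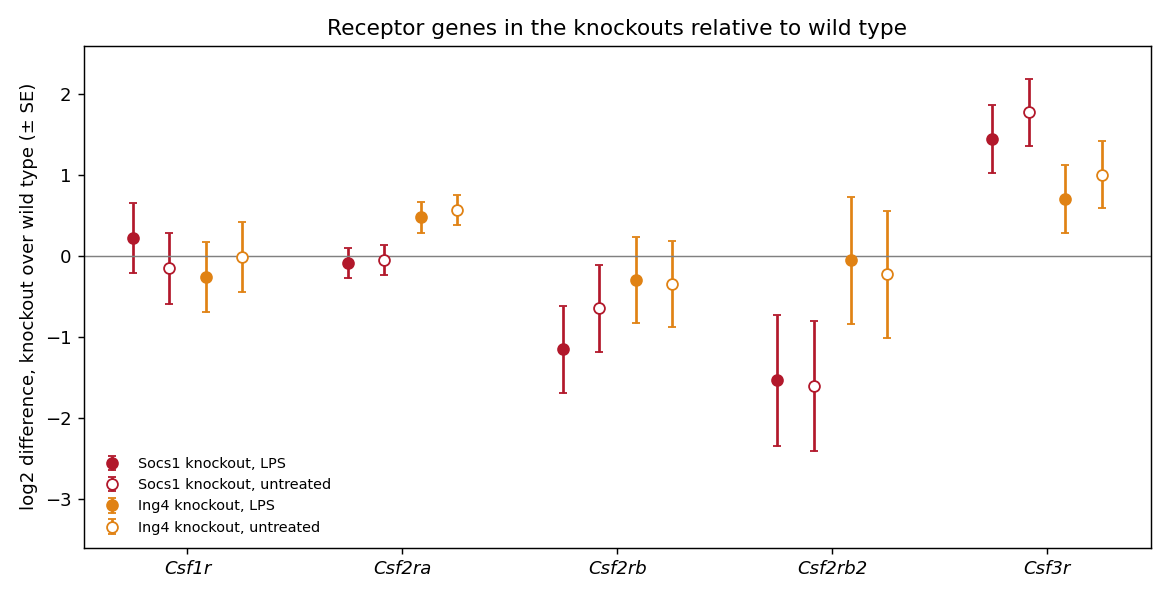
Log2 difference of each knockout over wild type, with its standard error, for the 4 receptor genes and Csf2rb2, after LPS (filled) and untreated (open). Csf3r lies above 0 in all 4 comparisons and Csf2rb2 below 0 in both of the Socs1 knockout; none passed at an adjusted p of 0.05.

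Of the ligands after LPS, Csf2 was lower in both Socs1 knockout libraries than in both wild-type libraries, as 18% of tested genes were, with a log2 difference of -3.25 (SE 1.99, adjusted p = 0.62). Csf3 differed by -0.93 (SE 1.06, adjusted p = 0.8) and Csf1 by -0.71 (SE 0.788, adjusted p = 0.79), and both overlapped with wild type. Without Socs1 knockout LPS library 1 the differences were -2.24 for Csf2 (SE 1.97, adjusted p = 0.73), 0.02 for Csf3 (SE 0.455, adjusted p = 0.99) and -0.01 for Csf1 (SE 0.73, adjusted p = 1.0). Without Socs1 knockout LPS library 2, Csf3 was called as lower in the Socs1 knockout (log2 -4.68, adjusted p = 0.0051), a value that rests on the first library alone. In the Ing4 knockout the log2 differences after LPS were -1.25 for Csf2 (SE 1.82), -0.53 for Csf3 (SE 1.06) and 0.64 for Csf1 (SE 0.785), and all 3 overlapped with wild type. Over the 4 comparisons of a knockout with wild type edgeR called 0 members. At an unadjusted p under 0.05 there were 1 and 1 in the untreated and LPS-treated Socs1 knockout, where 5.15% and 10.6% of all tested genes had such a p, and 2 and 1 in the Ing4 knockout, where 5.25% and 7.09% did. DESeq2 called 1, Csf3r in the untreated Socs1 knockout, and limma-voom 0. Among all 12771 tested genes edgeR called 0.047% and 0.0626% in the untreated and LPS-treated Socs1 knockout and 0.141% and 0.102% in the Ing4 knockout. DESeq2 called 89 and 235 of these genes in the Socs1 knockout and 126 and 140 in the Ing4 knockout. With limma-voom these were 8 and 24 in the Socs1 knockout and 33 and 32 in the Ing4 knockout. The difference between the LPS response of a knockout and that of wild type was called for 0 members and 0 of all genes (0%) in both knockouts by edgeR. DESeq2 and limma-voom called 0 members too, and at an unadjusted p under 0.05 edgeR found 0 members, with 102 genes in all for the Socs1 knockout and 53 for the Ing4 knockout.

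Apart from Csf2rb2, the listed partners of these receptors were nearly silent. Il34, the other ligand of CSF1R, had 0 to 11 counts per library. Interleukin 3 and its alpha chain, Il3 and Il3ra, had 0 counts in all 12 libraries. Il5 had 1 count in 1 library and Il5ra at most 3. A count of 0 allows up to 3 counts, or 0.122 to 0.169 CPM in these libraries.

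The pathway was covered by 9 lists of 96 genes, of which 88 were tested: receptor partners, kinases and adaptors, STAT factors, inhibitors, GM-CSF response genes, transcription factors of the receptor genes, genes that shed CSF1 and its receptor, mRNA decay genes, and NF-kB and AP-1 genes. These lists were drawn up with earlier results of the same data known, so their shares beside those of all tested genes are a description and no test. Genes kept only for their level after LPS, such as Cish, had to differ and are counted here. Over the 3 genotypes 49 rose and 11 fell after LPS (68.2%, against 33.2% of all tested genes), with a median log2 change of 0.80 against 0.00 over all genes. Within genotypes 17 rose and 0 fell in the Socs1 knockout, 24 rose and 6 fell in the Ing4 knockout, and 18 rose and 1 fell in wild type. Of the 88 these are 19.3%, 34.1% and 21.6%, against 1.98%, 8.02% and 2.89% of all tested genes. Without Socs1 knockout LPS library 1, with 89 tested, the counts were 39 and 6, 41 and 9, and 34 and 5 in the same order. The shares of all tested genes without that library are given with the members above. With the library number as a block within each genotype the counts were 29 and 1, 44 and 13, and 32 and 8. Of the 88 these are 34.1%, 64.8% and 45.5%, against 6.02%, 27.2% and 14.2% of all tested genes. In the knockouts against wild type edgeR called 0 of the 88 in each of the 4 comparisons. At an unadjusted p under 0.05 there were 5 and 17 of 88 in the untreated and LPS-treated Socs1 knockout (against 5.15% and 10.6% of all tested genes) and 3 and 10 in the Ing4 knockout (against 5.25% and 7.09%). DESeq2 called 1 and 3 (1.14% and 3.41%) in the Socs1 knockout and as many in the Ing4 knockout, and limma-voom 0. Of all 12771 tested genes DESeq2 called 89 and 235 in the Socs1 knockout and 126 and 140 in the Ing4 knockout.

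Among kinases and adaptors acting at these receptors, 9 of 19 rose and 4 fell over the 3 genotypes, with a median log2 change of 0.37. Of all tested genes 17.9% rose and 15.2% fell. Jak2, the kinase bound to the common beta chain, averaged 213.3 CPM after LPS and 33.6 CPM untreated (n = 6 libraries each), and rose (log2 change 2.61, SE 0.372, adjusted p = 0.0019). Src rose by a log2 of 4.21 (SE 0.521) and Fgr, a related kinase, by 2.19 (SE 0.425), while Pik3r1, a regulatory subunit of PI3-kinase, fell by 0.73 (SE 0.0957). Stat3 and Stat5a, which carry the signal of these receptors to the nucleus, rose over the 3 genotypes by 0.87 (SE 0.224) and 1.74 (SE 0.404). With all 12 libraries neither was called within a single genotype. Calls of STAT genes within a genotype depended on Socs1 knockout LPS library 1, since some were called in each genotype without it.

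The inhibitors of CSF signalling and the genes that respond to GM-CSF mostly rose where they were called. Of 11 inhibitors 2 fell in the Ing4 knockout, as did 420 of all 12771 tested genes, and 3 rose in each genotype. Of all tested genes 1.57% rose in the Socs1 knockout, 4.73% in the Ing4 knockout and 1.89% in wild type. The 3 that rose were Cish, Socs3 and Socs1, which encode proteins of the SOCS family that shut off JAK and STAT signalling. Socs3 averaged 646.8 CPM after LPS and 9.53 CPM untreated (log2 6.07, SE 0.4), and Cish 19.6 CPM after LPS and 0.0303 CPM untreated. At that untreated level Cish was kept only for its level after LPS, as Csf2 and Csf3 were, so it had to differ. Inpp5d, the lipid phosphatase SHIP1, fell by 1.29 over the 3 genotypes (SE 0.252) and was 1 of the 2 that fell in the Ing4 knockout (-1.77, adjusted p = 0.046). Of 12 GM-CSF and STAT5 response genes 4 rose in the Socs1 knockout, 7 in the Ing4 knockout and 5 in wild type, and 0 fell. Among all tested genes 1.57%, 4.73% and 1.89% rose in this order. The kinase gene Pim1 averaged 357.5 CPM after LPS and 15.9 CPM untreated (log2 4.51, SE 0.2), and the cytokine gene Osm 53.1 CPM after LPS and 5.14 CPM untreated (log2 3.22, SE 0.248). Ccl22, a chemokine of macrophages and dendritic cells, averaged 273.6 CPM after LPS and 0.242 CPM untreated. Its untreated level was near the floor, and whether it would pass the filter there was not tested.

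Of 15 transcription factors of the receptor genes, 6 rose and 2 fell over the 3 genotypes, where 17.9% of all tested genes rose and 15.2% fell. Spi1, which encodes PU.1, averaged 567.7 CPM after LPS and 276.2 CPM untreated (log2 1.04, SE 0.141, adjusted p = 0.0012). Cebpb rose by 0.81 (SE 0.0998). Runx1, a factor known to act at Csf1r, fell by 0.90 (SE 0.156). Of 4 genes that shed CSF1 and its receptor from the cell surface, 3 rose, beside the same 17.9% of all tested genes. They were the protease Adam17 by 0.58 (SE 0.111) and its partners Rhbdf2 by 2.01 (SE 0.255) and Rhbdf1 by 0.52 (SE 0.148).

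Genes known to act on the ligand promoters and messages included calls in every genotype. Of 12 NF-kB and AP-1 genes 5 rose in the Socs1 knockout, 5 in the Ing4 knockout and 6 in wild type. Among all tested genes 1.57%, 4.73% and 1.89% rose in this order. The list genes that rose included Rel, Nfkb2, Relb and Junb, with mean log2 changes of 2.32, 2.53, 1.86 and 2.47. Of 11 genes listed for the decay and stability of such messages 5 rose in each genotype, beside the same shares of all tested genes. In the Ing4 knockout 1 fell, as did 420 of all 12771 tested genes. Zc3h12a, a ribonuclease that cuts cytokine messages, averaged 352.3 CPM after LPS and 11.5 CPM untreated (log2 4.91, SE 0.161). Zfp36, which binds AU-rich elements, averaged 478.6 CPM after LPS and 36.6 CPM untreated (log2 3.71, SE 0.189). Nfkbiz and Tnip1 on the same list rose by 6.59 and 2.36, and are better known as NF-kB regulators, so the list is not of decay genes alone.

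**Figure D5:**
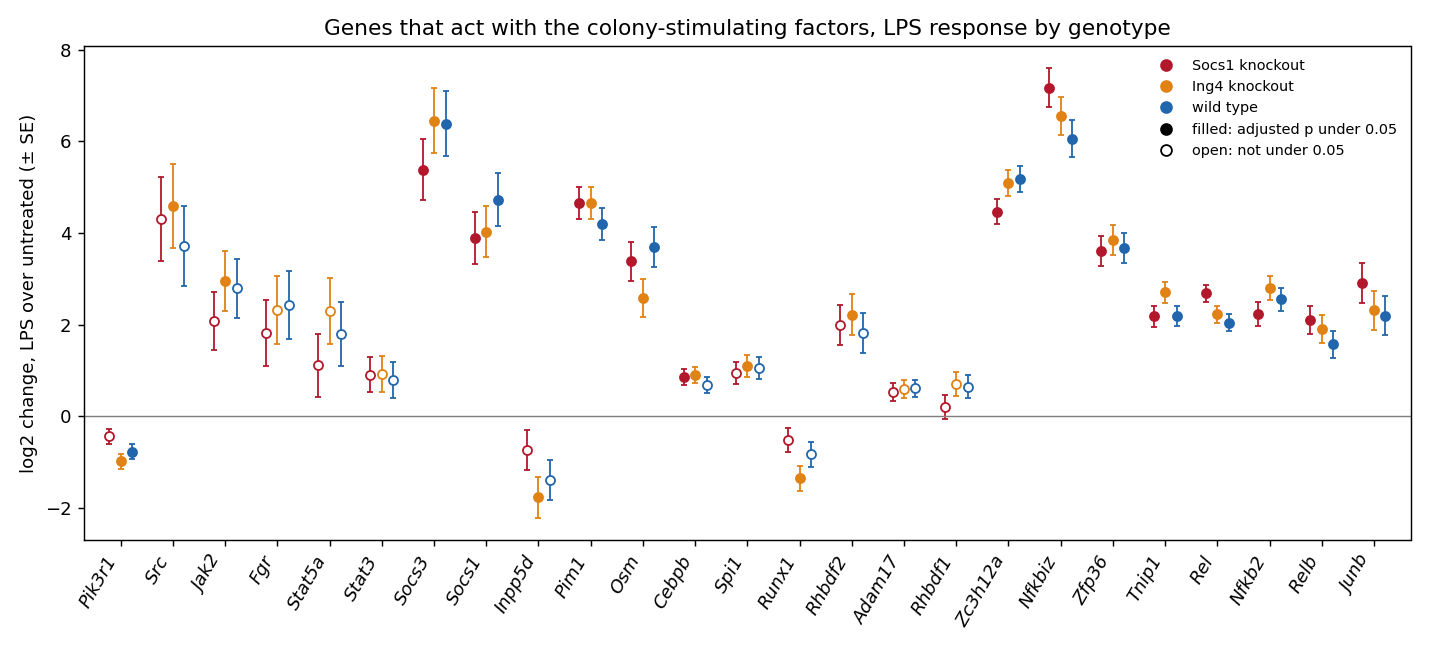
Log2 change of LPS-treated over untreated cells, with its standard error, for 25 named genes of 8 lists in each genotype, filled where the adjusted p was under 0.05. Most stand above 0 in all 3 genotypes, and Pik3r1, Inpp5d and Runx1 stand below.

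Likeness was measured as Pearson's r of log2(CPM + 0.5) over the 12 libraries, among 9796 genes with a mean of at least 2 CPM, and since 6 libraries were treated it mostly follows the LPS response. Closest to Csf1 were Cd40 (0.994), Malt1 (0.989) and Socs3 (0.989), to Csf3 Lif, Malt1 and Il1b (0.994 each), and to Csf2 Ccl17 (0.95), Degs1 (0.936) and Tgfb1 (0.935). The dendritic and macrophage chemokine gene Ccl17 had 0 to 8.15 CPM after LPS and 0 CPM untreated. Closest to Csf1r were Gpr180 (0.981), Haus8 (0.98) and Pdpr (0.979), and to Csf2ra Arhgef12 (0.94), Pid1 (0.932) and Tm2d1 (0.928). Csf2rb went with Cfp (0.976), Lxn (0.929) and Blnk (0.908) and with Csf2rb2 at 0.846. Csf3r went with Prpsap2 (0.939), Gpt (0.933) and Mau2 (0.919). Between members, Csf1 and Csf3 had an r of 0.974, Csf2 and Csf3 0.867 and Csf1r and Csf3 -0.857.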

How the data were processed

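Poly(A) RNA of 12 RAW264.7 libraries was sequenced by the submitters as single 75-base reads with a stranded TruSeq kit, per the labels. The deposited table holds counts of reads per Ensembl gene as the authors made them. FastQC, HISAT, StringTie, HTSeq and DESeq2 are named in the submitters' processing notes, without versions or settings. Those notes name build GRCh38, although every gene ID is from mouse, and the treatment label names HEK293T cells. Both are taken here as slips. From the authors' deposited tables of changed genes, the log2 changes (positive where the group tested against its control was higher) and adjusted p-values were read as deposited. For genes with low counts these log2 changes are smaller than the ratio of the group means in the same tables.

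Counts were tested with edgeR 4.0.16 (R 4.3.3), TMM scaling, filterByExpr with a minimum count of 10, 1 model with 6 group means over all 12 libraries, 10 contrasts, Benjamini-Hochberg adjustment over all 12771 tested genes and a threshold of 0.05. The steps were tested on simulated data. CPM is counts per TMM-scaled total, and CPM per kb divides it by the summed exon length of GENCODE M21. Standard errors come from the log2 change and its F value. Alternatives were DESeq2 1.42.0, limma-voom (limma 3.58.1), other scalings and filters, only the groups compared, a replicate block, and each library left out in turn. Library numbers pair the LPS-treated with the untreated library within a genotype, as seen in the data: the differences between libraries 1 and 2 correlated at 0.556 in the Socs1 knockout, 0.653 in the Ing4 knockout and 0.508 in wild type. The labels give only the numbers. Figures and summaries used Python 3.11.15, pandas 2.3.3, scipy 1.17.1 and matplotlib 3.10.9. Totals of 17250815 to 24377950 counts set the precision, and intervals and floors cover counting error only.

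The members and lists were chosen with earlier results of these data known. The text names the 7 members, up to 4 called genes of each pathway list by smallest p, 6 partner genes, the 3 genes most alike to each member, defining markers at 0, the targeted genes and members in the authors' tables. Csf2rb2 is among the 6 partners. Of the genes this rule names, 2 are not reported here. RefSeq promoters were matched by symbol.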

Additional observations from a re-analysis of the deposited data

How the results depend on the processing

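The count of members called, Csf2 and Csf3 included, was recomputed under every alternative. For LPS against untreated it was 2 in each genotype with the main settings. With DESeq2 it was 2 in the Socs1 knockout, 3 in the Ing4 knockout and 3 in wild type. With the replicate block by genotype it was 3, 4 and 3 in this order, and with no filter it was 3 in the Socs1 knockout. The mean over genotypes gave 4 with upper-quartile scaling, 4 with no filter and 6 with either replicate block. In the Socs1 knockout it was 0 with limma-voom and 0 with only the groups compared, and 0 to 3 on leaving out 1 library. In the Ing4 knockout it was 1 with limma-voom and 4 with no filter, and 0 to 3 on leaving out 1 library. In wild type it was 0 with limma-voom, 4 with no filter and 4 with only the groups compared, and 0 to 2 on leaving out 1 library. Over the 3 genotypes it was 5, and 3 to 5 on leaving out 1 library. For the Socs1 knockout against wild type, where edgeR called 0, it was 1 untreated with DESeq2 and 1 with no filter, and after LPS 4 with no filter and 0 to 1 on leaving out 1 library. The cause was not tested. Of 1124 recomputed log2 changes of members, 1023 kept call and direction, 57 changed sign with neither value called, 26 lost a call, 18 gained one and 0 reversed with a call. With Csf2 and Csf3 where no log2 change was given, 39 calls were lost and 27 gained, 13 and 9 of them by these 2 genes. Library numbers did not pair samples across genotypes: the difference between libraries 1 and 2 correlated at -0.138 to 0.193 between genotypes, against 0.508 to 0.653 between treatments of 1 genotype. With the replicate block after LPS 1 member, Csf2rb, was called in the Socs1 knockout against wild type (-1.18, adjusted p = 0.029), and Csf3r over the 3 genotypes had an adjusted p of 0.046. With the replicate block by genotype 4 members were called in the Ing4 knockout, Csf2 had an adjusted p of 0.034, 0.011 and 0.0097 in the Socs1 knockout, the Ing4 knockout and wild type, Csf1r in the Ing4 knockout -1.08 (0.041) and Csf3r over the 3 genotypes 0.028, and no other member's call changed. The block by genotype could not be fitted for contrasts between genotypes, and the mean over genotypes was not run on only the groups compared. With 0 to 17 untreated counts of the ligands, their fold changes are limited by depth.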
